A study of Urocitellus parryii with 3 samples.

Results

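The miR-15 and miR-16 family was followed across 3 stages in the liver of a hibernating mammal, the arctic ground squirrel Urocitellus parryii, on an array of mouse miRNA probes. The members were the array entries named mmu-miR-15a, mmu-miR-15b, mmu-miR-16, mmu-miR-195, mmu-miR-322 and mmu-miR-497 and were taken by these names. They are 6 of the 567 mouse miRNAs on the array and filled 120 of its 11540 miRNA spots, as 2 probes of 10 spots for each member. The groups are liver at early arousal, late torpor (late topor in the labels) and post-reproduction. Torpor is the cold state of low metabolism of a hibernator and arousal the rewarming out of it; the labels say no more of each stage and name no treatment. The sources used here do not give age, sex or the number of animals. Each stage is 1 pool of equal RNA amounts from its animals, of which 100 ng, labelled with Cy3, went onto 1 array of a shared slide, so an effect of the stage cannot be told apart from one of the pool or of the place on the slide. No stage has a replicate, no test between stages was made, and the spread given below is the spread between spots of a probe. In pooled bulk RNA, fewer cells of a type and less RNA per cell cannot be told apart.

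miRNAs of this family share the same seed, the stretch near the 5′ end that pairs with target messages. They are known for restraining cyclins and cyclin-dependent kinases, which drive cells through the G1 phase, and miR-15a and miR-16 are known for lowering the survival protein BCL2. In mammals miR-15a and a copy of miR-16 lie in the noncoding gene Dleu2, miR-15b and a second copy of miR-16 lie in an intron of Smc4, a condensin gene, miR-497 and miR-195 form a cluster of their own, and miR-322 (called miR-424 in humans) lies in a cluster on the X chromosome. The files place the probe targets on the mouse build mm9, and whether the squirrel's mature miRNAs match these probes was not tested. The targets of miR-15a (chr14:62250912-62250933) and miR-16 (chr14:62250773-62250790) were 122 bases apart, and those of miR-195 (chr11:70048566-70048584) and miR-497 (chr11:70048234-70048253) were 313 bases apart. The target of miR-15b lay at chr3:68813699-68813718 for 1 of its probes, the other being listed as unmapped, and that of miR-322 at chrX:50407483-50407504. The mature miR-16 of both loci is the same, so the array gives 1 value for their sum.

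Intensity is the processed signal of the scanner program. A probe is called detected on an array if the program put over 50% of its retained spots well above background. Of the mouse miRNAs, 143 to 158 were detected per array, and 135 had a probe detected on all 3 arrays and are called measured. The array medians of 672 negative control spots were 1.21 to 1.69 intensity units, and the brightest viral entry, which serves as background, had 22.2 to 26.5. The SD of these control spots, outliers included, was 11.6 in post-reproduction, 4.13 in late torpor and 3.61 in early arousal. As a check of the tissue, 6 of the 7 hepatocyte miRNAs were measured, with a summed intensity of 37535 to 42466. Of the 4 muscle miRNAs on the array 0 were measured, but 3 were detected in late torpor, 2 in early arousal and 0 in post-reproduction. Arrays were made comparable by dividing each by the 75th percentile of the 250 probes detected on all of them, which was 398 for post-reproduction and lower, at 349 and 350.4, for late torpor and early arousal. Differences are differences of the scaled log2 intensity, with a standard error (SE) from spots. Because that scaling sets where 0 lies, each difference is also given relative to the median of the 135 measured miRNAs, a quantity that any shift of whole arrays leaves as it is. That median was 0.13 for late torpor minus post-reproduction, 0.062 for early arousal minus post-reproduction and -0.094 for early arousal minus late torpor.

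All 6 members were measured, 5 of them through both probes and miR-322 through 1. For miR-15a, encoded in Dleu2, the brighter probe gave 192 ± 8.68 intensity units in post-reproduction (mean ± SD, 10 spots), 263 ± 9.81 in late torpor and 253 ± 13.1 in early arousal. Its dimmer probe gave 172 ± 5.62, 241 ± 8.11 and 222 ± 10.7 in the same order, the last over 9 spots. The post-reproduction spots lay below every late torpor and early arousal spot on both probes, while the spots of late torpor and early arousal overlapped. For miR-15b, its close relative in Smc4, the brighter probe gave 240.4 ± 9.88 in post-reproduction, 376 ± 19.3 in late torpor and 294 ± 15.9 in early arousal. The dimmer probe gave 124 ± 6.22, 206 ± 12.6 and 158 ± 7.70. On both probes of miR-15b the 3 arrays did not overlap at any spot, with post-reproduction lowest and late torpor highest.

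miR-16, the sum of the copies in both loci, gave 406 ± 9.61 on its brighter probe in post-reproduction, 530.3 ± 12.9 in late torpor (9 spots) and 491 ± 24.9 in early arousal. The dimmer probe gave 111 ± 3.15, 147 ± 7.41 and 133 ± 4.67. As for miR-15a, post-reproduction lay below the other arrays at every spot, and late torpor and early arousal overlapped.

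The members of the chromosome 11 cluster stayed near level. miR-195 gave 159.9 ± 9.41 on its brighter probe in post-reproduction, 162 ± 10.9 in late torpor and 150.1 ± 7.50 in early arousal, and 50.9 ± 4.06, 46.0 ± 3.41 and 49.2 ± 2.46 on the dimmer one. miR-497 gave 126 ± 7.71, 126 ± 9.61 and 116 ± 5.74 on its brighter probe and 37.6 ± 3.29, 35.6 ± 3.36 and 35.2 ± 1.41 on the dimmer one. Spots of the 3 arrays overlapped in every pair of arrays, on both probes of both miRNAs. miR-322 was close to background: its measured probe gave 12.5 ± 2.42 in post-reproduction, 11.8 ± 1.79 in late torpor (9 spots) and 14.9 ± 1.97 in early arousal (8 spots), below the brightest viral entry on each array. Its other probe, at 3.53 to 3.85 intensity units, was not detected on any array. In late torpor and post-reproduction no measured entry was dimmer than miR-322. At this level detection does not show that the miRNA was present.

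**Figure D1:**
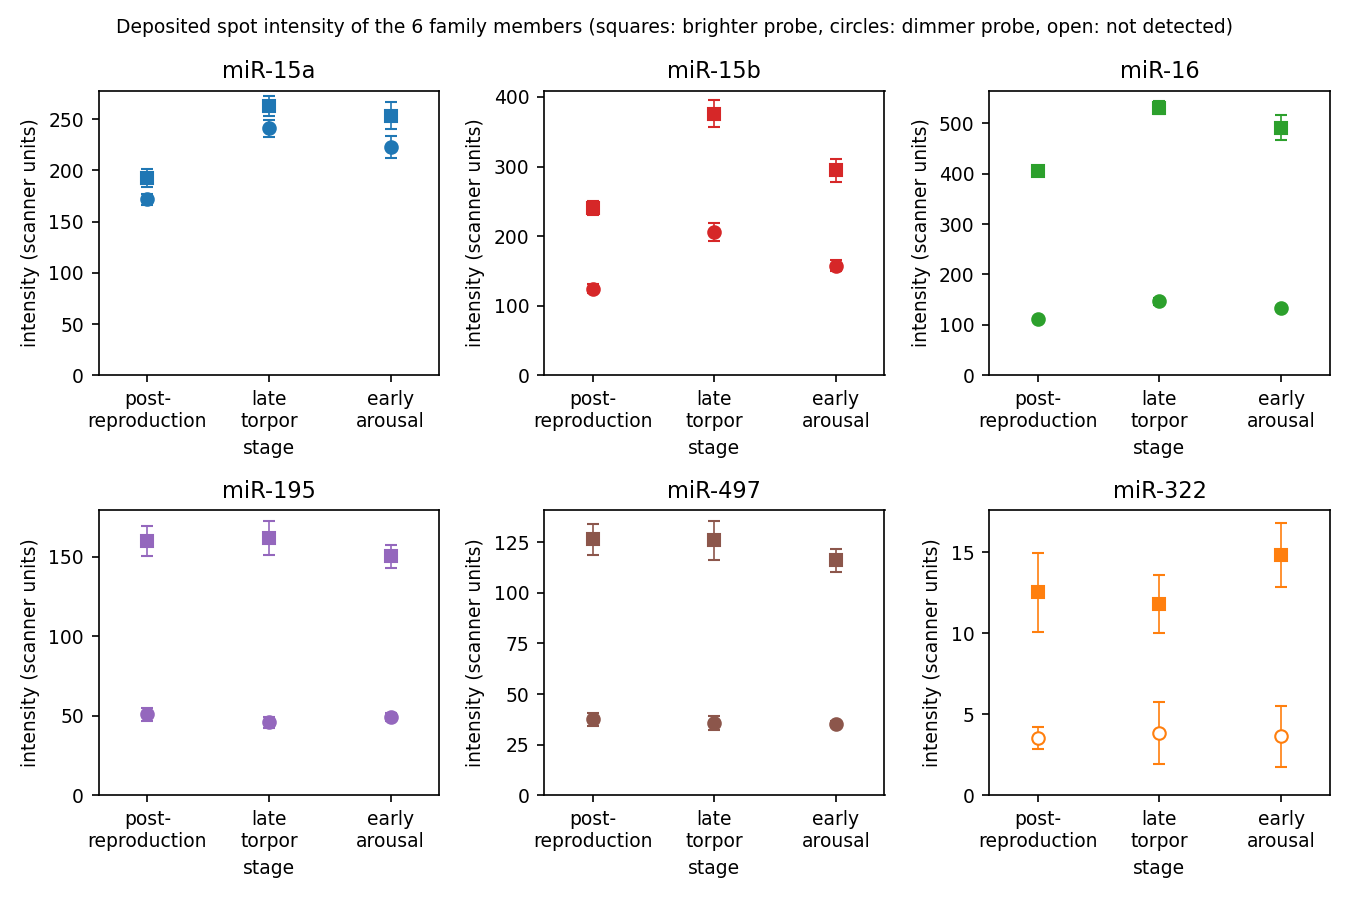
Deposited intensity (linear scanner units, axis from 0) of each probe of the 6 members by stage; points are means over the kept spots of 1 array and bars are their SD, with squares for the brighter probe, circles for the dimmer probe and open symbols for a probe not detected. miR-15a, miR-15b and miR-16 are lowest in post-reproduction on both probes (192, 240.4 and 406 on the brighter ones), while miR-195 and miR-497 overlap between stages and miR-322 reaches at most 14.9.

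The first comparison asked how late torpor differs from post-reproduction. miR-15b, miR-15a and miR-16 were higher in late torpor, and miR-195, miR-497 and miR-322 lay at the median of all miRNAs. miR-15b was 1.83-fold higher (95% interval from spots 1.78 to 1.89), a log2 difference of 0.88 ± 0.02 (SE), and ranked 4th from the top of the 135, behind miR-144, miR-486 and miR-451 of red blood cells. miR-15a was 1.58-fold higher (1.54 to 1.62) with a log2 difference of 0.66 ± 0.02. miR-16 was just under 1.5-fold higher (interval 1.47 to 1.53) with a log2 difference of 0.58 ± 0.02. The probes of a member gave nearly the same value, 0.84 and 0.91 for miR-15b, 0.64 and 0.68 for miR-15a, and 0.58 and 0.59 for miR-16. miR-195 was at 0.12 ± 0.03, miR-497 at 0.15 ± 0.04 and miR-322 at 0.12 ± 0.12. Relative to the median of measured miRNAs these 3 lay at -0.0070, 0.016 and -0.012, against 0.74 for miR-15b, 0.53 for miR-15a and 0.45 for miR-16.

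A miRNA was counted as past 1.5-fold where its fold reached 1.5, its log2 difference was more than 2 SE and all its measured probes had the same sign. In this direction 2 members (miR-15a and miR-15b) were past it, beside 14 of 135 measured miRNAs or 10.4%, and miR-16 fell just short. None was lower past 1.5-fold, as 4.44% of measured miRNAs were. No member was past the same rule at 2-fold, which 2.22% of measured miRNAs were. All 6 differences were above 0, as were 65.2% of all, so the sign alone says little about the family. Of the 11 measured probes of the family, 6 had all scaled late torpor spots above all post-reproduction spots, beside 35.4% of the 246 measured mouse probes, and with the deposited intensities the same 6 did so beside 19.5%. The family's median difference was 0.37, against 0.13 for all measured miRNAs. It falls in the gap between miR-16 and miR-497, where no member lay. With strict detection, which left miR-322 unmeasured, it was 0.35, where the median of all was -0.11. It turned to -0.026 with scaling on all probes without substituted values, where the median of all was -0.26, and fell to 0.065 with the total signal, where the median of all was -0.14.

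The second comparison set early arousal against post-reproduction. miR-15a was 1.49-fold higher in early arousal (95% interval from spots 1.44 to 1.53), miR-15b 1.42-fold (1.37 to 1.46) and miR-16 1.37-fold (1.34 to 1.40), with log2 differences of 0.57, 0.50 and 0.45 and an SE of 0.02 each. miR-322 was at 0.45 ± 0.12, from 1 probe near background. miR-195 was at 0.12 ± 0.03 and miR-497 at 0.079 ± 0.03, again close to the median of all miRNAs, from which they differed by 0.053 and 0.017. No member was past 1.5-fold, beside 5.19% of measured miRNAs that were higher and 6.67% that were lower. The same 6 probes of miR-15a, miR-15b and miR-16 had no spot in common with post-reproduction, beside 30.9% of measured probes in that direction on the scaled and 17.1% on the deposited intensities. The family's median was 0.45 against 0.062 for all measured miRNAs, and 0.075 against -0.31 with scaling on all probes. With the scaling on detected probes all 6 differences were above 0 where 55.6% of all were. This comparison and the first share the post-reproduction array, so they are not separate evidence.

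The third comparison, early arousal against late torpor, set miR-15b below miR-15a and miR-16. miR-15b was 1.30-fold lower in early arousal, with a log2 difference of -0.37 ± 0.02 and -0.28 relative to the median of measured miRNAs. miR-15a and miR-16 were at -0.090 ± 0.02 and -0.13 ± 0.02, within 0.039 of that median. miR-195 was at -0.0087 ± 0.03, its probes differing in sign (-0.11 and 0.093), and miR-497 at -0.068 ± 0.03. miR-322 was the only member above 0, at 0.33 ± 0.10, where 34.8% of all measured miRNAs were above 0. With median scaling the family's median turned positive, at 0.073, as did that of all miRNAs, at 0.058. Of the family's 11 measured probes, 2, both of miR-15b, had every early arousal spot below every late torpor spot. On the scaled intensities 26% of all measured probes did so. No member was past 1.5-fold, which 2.22% of measured miRNAs were in the upward and 5.93% in the downward direction. The family's median of -0.079 lay close to the -0.094 of all.

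**Figure D2:**
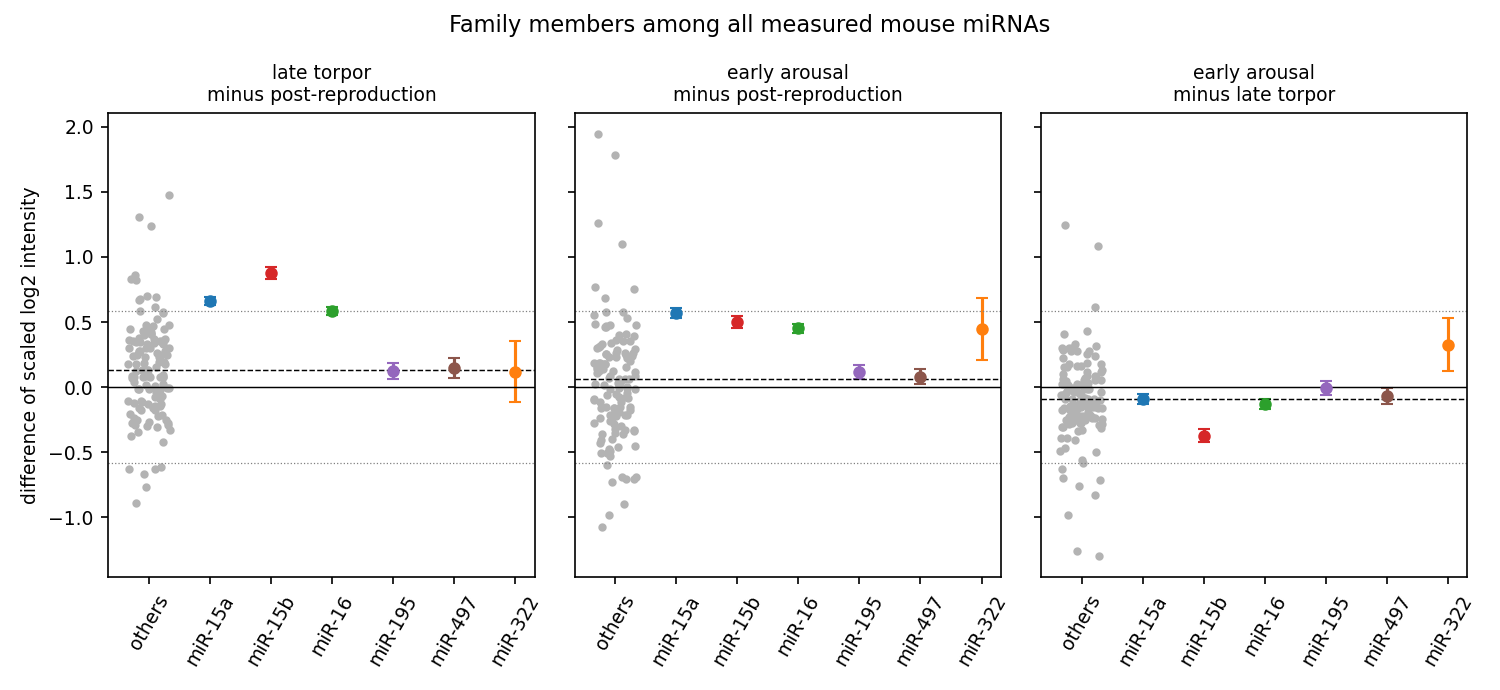
Difference of scaled log2 intensity in each of the 3 comparisons for the 6 members (coloured, bars are 95% intervals from spots) beside the 129 other measured mouse miRNAs (grey, spread sideways for visibility). The dashed line is the median of the 135 measured miRNAs and the dotted lines mark 1.5-fold: miR-15b at 0.88 and miR-15a at 0.66 lie above it in late torpor minus post-reproduction, while miR-195 and miR-497 lie on the dashed line.

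Subtracting one member's difference from another's removes any scaling of whole arrays, and set miR-15a, miR-15b and miR-16 apart from miR-195 and miR-497 in both comparisons with post-reproduction. These groups were formed after the differences were seen, so what follows describes the split and does not test it. In late torpor minus post-reproduction, each of miR-15a, miR-15b and miR-16 exceeded each of miR-195 and miR-497. The 6 excesses ran from 0.44 for miR-16 over miR-497 to 0.75 for miR-15b over miR-195, and all 6 of their 95% intervals from spots left out 0. In early arousal minus post-reproduction they ran from 0.33 for miR-16 over miR-195 to 0.49 for miR-15a over miR-497, and again all 6 intervals left out 0. The chromosome 11 cluster mates miR-195 and miR-497 differed by -0.023 (interval -0.12 to 0.075) and 0.037 (-0.042 to 0.12) in the same comparisons, intervals that hold 0. miR-15a exceeded miR-16, which lies beside it but is the sum of both loci. The excess was 0.078 (0.032 to 0.12) and 0.12 (0.068 to 0.17), intervals from spots that leave out 0. In the same comparisons the range between probes of the same miRNA had a median of 0.063 and 0.073. That median is over the 105 measured miRNAs with 2 or more probes, and the first excess is close to it. miR-322 could not be told apart from miR-195 and miR-497 in the first of these comparisons, by intervals that hold 0. In the second it could not be told apart from miR-15a, miR-15b and miR-16. Its SE of 0.12, from 1 probe near background, is too wide to place it in either group. miR-15b exceeded miR-15a by 0.21 (0.16 to 0.27) in late torpor minus post-reproduction, and was 0.070 (0.010 to 0.13) below it in early arousal minus post-reproduction. Of all 15 pairs of members, 12, 10 and 11 had an interval that left out 0 in the 3 comparisons, without adjustment for their number. These intervals hold spot spread alone and leave out the disagreement between probes. At most they say that the arrays differ and not that the stages do. Some probes of these members were of like brightness. The dimmer probe of miR-16, at 111 to 147 intensity units, had a log2 difference of 0.59 in late torpor minus post-reproduction. The brighter probes of miR-195 and miR-497, at 150.1 to 162 and 116 to 126 units, had 0.20 and 0.18. Their dimmer probes had 0.044 and 0.11. The part of probe brightness in the split was not tested. Mature sequences in this family are alike beyond the seed, and signal shared between probes of different members was not tested.

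Of 11 other ways of processing, 5 left every excess of one of these members over another as it was, since a shift of whole arrays cancels in it. Over the 6 that could change it, the excess of miR-15a, miR-15b and miR-16 over miR-195 and miR-497 was above 0 in 36 of 36 values in late torpor minus post-reproduction (0.33 to 0.87) and in 36 of 36 in early arousal minus post-reproduction (0.26 to 0.63). These values share members and come from the same arrays, so they are not separate evidence. The members' own differences, unlike the excess, move with shifts of whole arrays. In the first comparison miR-15b ranged from 0.48 to 0.90, miR-15a from 0.27 to 0.69 and miR-16 from 0.19 to 0.61, and none of them turned sign. miR-15b was past 1.5-fold in 9 of the 11 and miR-15a in 3. In the second they ranged from 0.13 to 0.54, from 0.20 to 0.71 and from 0.078 to 0.49. miR-195 and miR-497 each turned below 0 in 5 of 11 settings in the first comparison and in 6 of 11 in the second, and miR-322 in 4 of 10 and in 0 of 10. Between early arousal and late torpor, miR-15b stayed below 0 in all 11 settings (-0.62 to -0.16), whereas miR-15a turned sign in 3 and miR-16 in 2.

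**Figure D3:**
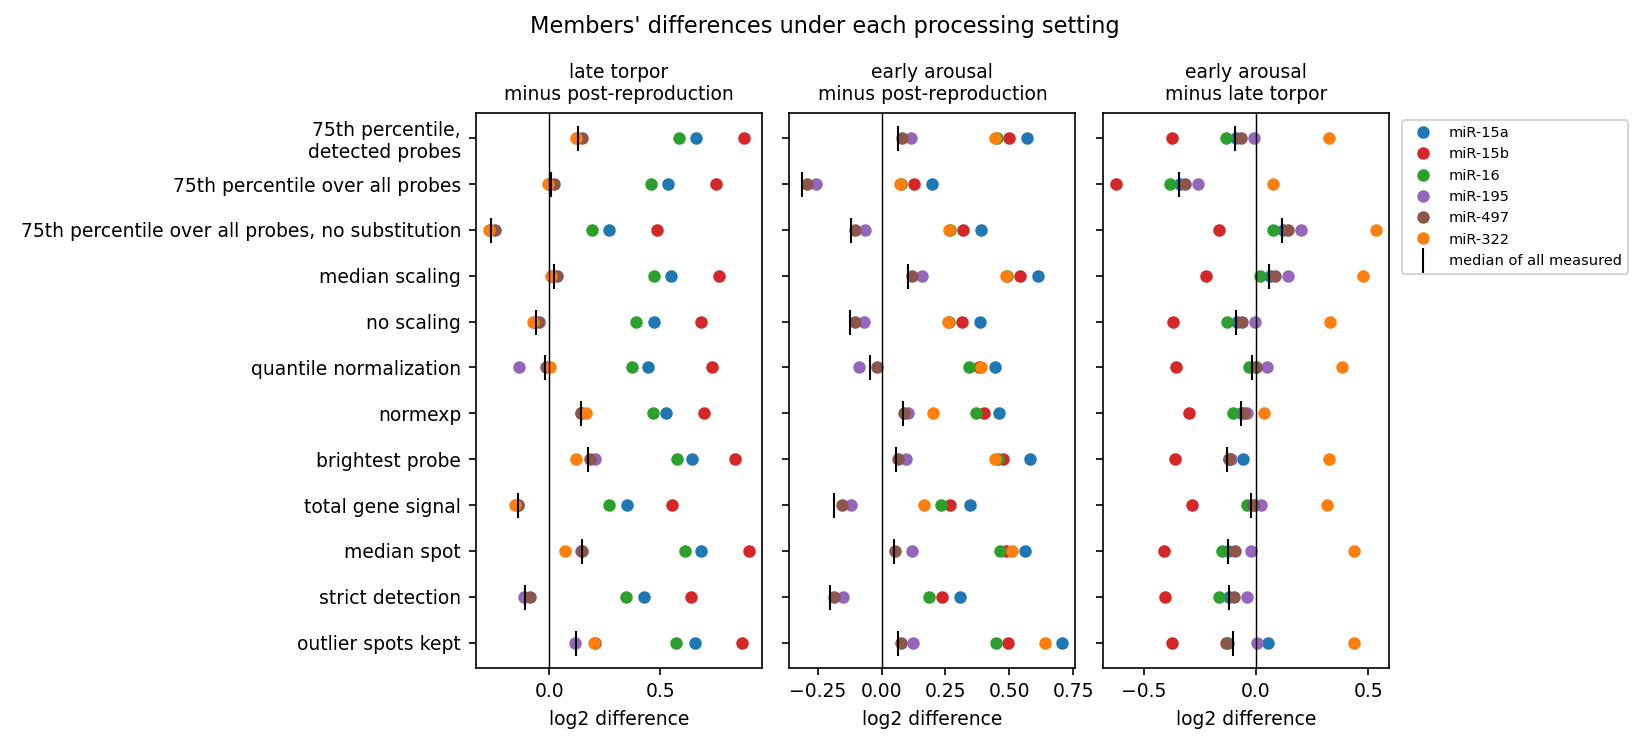
Log2 difference of each member (coloured points) under the main setting (top row) and the 11 alternatives, with the median of all measured miRNAs as a black tick. In 5 of the alternatives miR-15a, miR-15b, miR-16, miR-195 and miR-497 only shift together. The distances between them are then those of the top row. In the first 2 panels miR-15a, miR-15b and miR-16 stay right of miR-195 and miR-497 in every row. The distances are 0.33 to 0.87 and 0.26 to 0.63.

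Relatives of the family outside its 6 members were lower, and the cluster neighbours were not detected. miR-103 and miR-107, which lie in introns of pantothenate kinase genes and resemble the family near the 5′ end, are counted to a wider group with the family. On its brighter probe miR-107 gave 678 ± 21.3 intensity units in post-reproduction, 544 ± 23.8 in late torpor and 525 ± 24.4 in early arousal, and miR-103 gave 525 ± 33.0, 432 ± 30.4 and 352 ± 26.4. Both were highest in post-reproduction, the opposite of miR-15a, miR-15b and miR-16. Their log2 differences were -0.12 ± 0.02 and -0.095 ± 0.03 in late torpor minus post-reproduction, and -0.16 ± 0.02 and -0.32 ± 0.03 in early arousal minus post-reproduction. Both miRNAs were below 0 in these comparisons under each of the 11 other settings. miR-503, also of that group and a neighbour of miR-322 264 bases away on the X chromosome, was not detected on any array. Of the 12 entries from the members' own hairpins and clusters that the array carried, 0 were detected on any array: the star strands of miR-15a, miR-15b, miR-16, miR-322 and miR-503, and miR-351, miR-542-3p, miR-542-5p and the 4 miR-450 entries. The brightest probe of each of these, miR-503 included, had a mean of at most 7.95 intensity units. Of the X-linked cluster, only miR-322 had a probe detected on every array.

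Other miRNAs known to act on the cell cycle were set beside the family, from lists chosen with earlier results of these data known. Of the 25 known to restrain it, 19 were measured. Their median was 0.074 in late torpor minus post-reproduction, below the median of all measured miRNAs by 0.057, with 0 past 1.5-fold and a range from -0.29 for let-7d to 0.36 for miR-29a. Against post-reproduction, early arousal gave them a median of -0.060, with miR-449a past 1.5-fold upward at 0.75 and miR-34a, a target of p53, past it downward at -0.90. Of the 12 known to promote the cycle, 10 were measured. Their medians were 0.42 and 0.24 in the same comparisons, with 8 of 10 above the median of all measured miRNAs in both, and 0 past 1.5-fold upward. miR-222 was the lowest in both, at -0.42 and -0.71, the latter past 1.5-fold.

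With the scaling on detected probes, red blood cell miRNAs were higher in late torpor and early arousal than in post-reproduction, as miR-15a, miR-15b and miR-16 were. For early arousal the sign of miR-144 depended on the processing, as it ran from -0.19 to 0.22 over the 11 other settings. miR-451 ran from 0.16 to 0.57 and miR-486 from 0.18 to 0.59. Against post-reproduction, leukocyte miRNAs had a median of 0.37 in late torpor and -0.19 in early arousal, the latter being 0.044 with normexp. The 3 red blood cell miRNAs (miR-144, miR-451 and miR-486) had a summed intensity of 1481 in post-reproduction, 3085 in late torpor and 1873 in early arousal, all 3 being measured. Their log2 differences ran from 1.24 to 1.48 in late torpor minus post-reproduction, from 0.18 to 0.55 in early arousal minus post-reproduction and from -1.30 to -0.71 in early arousal minus late torpor. Of the 7 leukocyte miRNAs 6 were measured, with miR-155 not detected. Their summed intensity was 508 in post-reproduction, 599 in late torpor and 439 in early arousal, and their differences ran from -0.27 to 0.67, from -0.49 to 0.47 and from -0.83 to 0.18 in the 3 comparisons. miR-15a, miR-15b and miR-16 all had the same order of stages as the red blood cell sum, with late torpor highest and post-reproduction lowest. Of these, miR-15a and miR-16 stayed within 0.039 of the median of all miRNAs between late torpor and early arousal. miR-15b was at -0.28 relative to that median, and the red blood cell miRNAs lay at least 0.62 below it. The part of blood cells in the members' differences was not tested. The hepatocyte list had medians of 0.29 and 0.15 against post-reproduction. The endothelial list had medians of 0.024 and -0.11, but in both comparisons only 2 of its 4 miRNAs were above 0. In late torpor minus post-reproduction its highest was miR-126-3p (0.35) and its lowest miR-222 (-0.42). Early arousal minus post-reproduction put miR-126-5p highest (0.36) and miR-222 again lowest (-0.71). The mesenchymal list had medians of 0.029 and 0.024.

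**Figure D4:**
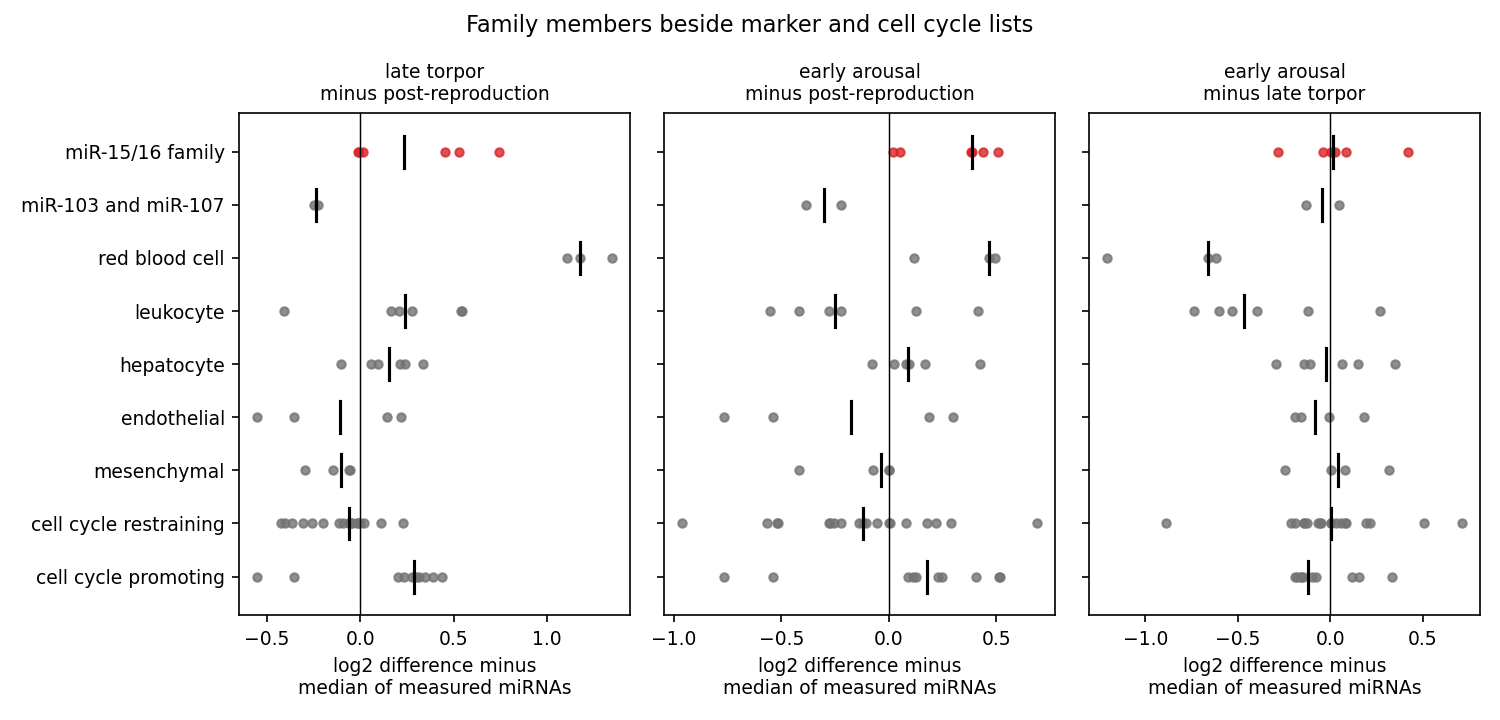
Log2 difference minus the median of the 135 measured miRNAs for each measured miRNA (points) of the family (red) and of the marker and cell cycle lists (grey), with black ticks for list medians, in the 3 comparisons. The red blood cell miRNAs lie farthest right in late torpor minus post-reproduction (1.11 to 1.35), and miR-103 and miR-107 lie left of 0 in the first 2 panels.

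The miRNAs whose pattern over the 3 arrays was most like the family's mean were found by the distance between their log2 values, each centred on its own mean. Of 129 measured mouse miRNAs outside the family the closest were miR-130a (distance 0.031), miR-29a (0.045), miR-202-3p (0.054), miR-340-5p (0.075) and miR-20a (0.079), where the median distance was 0.34. With 3 arrays such a likeness is easily met. The members, which make up that mean themselves, lay at 0.12 for miR-16, 0.19 for miR-15a and 0.22 for miR-195. miR-497 lay at 0.23, miR-322 at 0.29 and miR-15b at 0.33. All were below the median distance of 0.34 but farther than the 5 named, which were picked for the smallest distances.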

How the data were processed

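Liver RNA of 3 stages was measured on 3 arrays, 1 pool each. The authors used Agilent Feature Extraction 9.5.3.1, as the file headers and the submitters' processing notes both record. The deposited intensity is, per the file headers, the spot signal after subtraction of a fitted spatial background, with local background subtraction off and no scaling between arrays; deposited flags are other values of that program. The authors' deposited series table equalled it at 12493 of 12493 spots per array (relative tolerance 1e-06), on a linear, uncentred scale, with medians of 1.05, 1.15 and 1.13.

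Control spots and outlier spots (280 to 398 per array) were left out; no miRNA spot was saturated. Spots at or below 0 took the array's lowest well-above-background intensity (8.49 to 10.7). Log2 values were averaged over spots and measured probes. Intervals cover spot spread only, and precision is limited by having 1 array per stage. Members, lists and the rule for named miRNAs (members, their relatives and cluster neighbours, extremes of the lists, 5 most alike patterns) were chosen with earlier results of these data known. The 11 alternatives were scaling on all probes (with and without the substituted values), on the median or none, quantile normalization, normexp with offset 50 (limma 3.58.1), the brightest probe, the program's total signal, the median spot, strict detection and outliers kept. Steps ran in Python 3.11.15 and were tested on simulated data. The simulation held spot spread, known changes and a shift of whole arrays, and no spread between pools or probes. Its scaling shift was taken out with the miRNAs known to be unchanged, which real data do not allow. It therefore does not test the scaling or the differences between stages.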

Additional observations from a re-analysis of the deposited data

How the results depend on the processing

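No array could be left out, since each stage had 1, and no paired analysis was possible because no stage had more than 1 array. The family's median difference in late torpor minus post-reproduction (0.37) was 0.24 with scaling on all probes, -0.026 with that scaling unsubstituted, 0.25 with median scaling, 0.17 without scaling, 0.19 after quantile normalization, 0.32 with normexp and 0.065 with the total signal. For early arousal minus post-reproduction (0.45) it was 0.075 with all probes, 0.27 unsubstituted, 0.26 without scaling, 0.29 with normexp, 0.20 with the total signal and 0.19 with strict detection. For early arousal minus late torpor (-0.079) it was -0.33 with all probes, 0.13 unsubstituted, 0.073 with median scaling, -0.00066 after quantile normalization, -0.0089 with the total signal and -0.12 with strict detection. Scalings that shift whole arrays and keep the same measured miRNAs left it at 0.23, 0.39 and 0.015 above the median of all measured miRNAs. With strict detection, which changes the miRNAs measured, it lay 0.46, 0.39 and 0.0011 above that median. The miRNAs past 1.5-fold numbered 20 in late torpor minus post-reproduction (14 higher), but 13 with all probes and after quantile normalization (7 higher in each) and 4 with normexp. The split was 3 higher and 23 lower with the unsubstituted scaling, 8 and 6 with the median and 7 and 7 without scaling. In early arousal minus post-reproduction there were 16 (7 higher and 9 lower), but 39 with all probes (4 higher), 4 with normexp and 28 with strict detection. Unsubstituted scaling gave 5 higher and 18 lower, the median 11 and 8 and no scaling 4 and 18. In early arousal minus late torpor there were 11 (3 higher and 8 lower), but 20 with all probes (2 higher) and 4 with normexp. Unsubstituted scaling gave 5 higher and 4 lower, and the median 3 and 5. The cause of these shifts was not tested. Strict detection left miR-322 unmeasured.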

Other observations

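On the early arousal array 1 spot of the dimmer miR-15a probe reached 1590 intensity units, where its other 9 spots ran from 211 to 244, and the scanner program had marked it as an outlier. With outlier spots kept, miR-15a was at 0.71 in place of 0.57 in early arousal minus post-reproduction and at 0.054 in place of -0.090 in early arousal minus late torpor.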
